A study of Mus musculus with 20 samples.

Results

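The genes described here are 10 genes of the unfolded protein response and the integrated stress response: Atf4, Atf3, Ddit3, Trib3, Chac1, Asns, Ppp1r15a, Eif2ak3, Xbp1 and Hspa5. They were chosen by name from the 27827 gene names of a mouse whole genome array with 1 colour. They were read by 12 probes, and Ppp1r15a was found through its accession because the array calls it Myd116. Kidney RNA was hybridised on 20 arrays in 5 groups of 4 arrays, all from C57BL/6 mice (males of 8 to 12 weeks, by the study's methods). No operation and no treatment is recorded for Control mice, and no sham operation for any group. IRI mice had both renal pedicles clamped for 45 minutes, and their kidneys were taken after 6 hours of reperfusion. IRI+Hemin mice received hemin at 25 mg/kg intraperitoneally 24 hours before the same operation. IPC+IRI mice had a shorter ischemia of 15 minutes 7 days before the same operation. Hemin mice received hemin at 25 mg/kg, and no operation is recorded for them. The time from their hemin to kidney removal is not given. The labels number the arrays within a group and do not say that each came from a separate animal, so the p-values measure the spread between these arrays.

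When unfolded protein builds up in the endoplasmic reticulum (ER), the sensors PERK, IRE1 and ATF6 are activated. PERK, the product of Eif2ak3, phosphorylates the initiation factor eIF2, as do other kinases that sense amino acid lack, heme lack or viral RNA. This slows most translation but favours that of ATF4, which switches on genes for amino acid supply, for feedback and, through CHOP (Ddit3), for cell death. IRE1 splices Xbp1 RNA, and XBP1 and ATF6 then raise chaperones such as BiP (Hspa5). Expression arrays read RNA levels alone, and neither splicing of Xbp1 nor phosphorylation nor translation was measured.

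The RefSeq promoters of all 10 genes were searched, on both strands, for letters that factors of this pathway are known to bind. Each promoter ran from 250 bases before to 50 bases after the start site in GRCm38.p6. The CARE, the composite site of ATF4 with C/EBP partners, was searched as TGATGNAA, and in Atf3, Trib3 and Chac1 the match is its reverse complement. It was found in 4 of the 10 promoters, against 3.97% of all 32851 promoters. The CRE, TGACGTCA, was found in the promoter of Ppp1r15a alone (1.79% of all promoters). The ER stress element, CCAAT and CCACG with 9 bases between them, was found in the promoter of Hspa5 alone (0.119% of all promoters). No promoter of the 10 held TGACGTGG, the letters searched for XBP1 and ATF6 (0.676% of all promoters), and none of the 4 motifs was in the windows of Atf4, Ddit3, Eif2ak3 and Xbp1. The 6 matches follow with 60 bases before them, or as many as the window holds, and 8 bases after. They are written 5′ to 3′ along the gene's strand, with the motif in capitals, to show which of these letters each promoter holds.
Atf3, CARE, chr1:191183428-191183503, minus strand: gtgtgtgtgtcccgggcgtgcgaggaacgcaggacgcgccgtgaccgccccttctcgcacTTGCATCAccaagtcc
Trib3, CARE, chr2:152344031-152344106, minus strand: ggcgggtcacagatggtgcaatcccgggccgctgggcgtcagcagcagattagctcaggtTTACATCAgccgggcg
Chac1, CARE, chr2:119350992-119351064, plus strand: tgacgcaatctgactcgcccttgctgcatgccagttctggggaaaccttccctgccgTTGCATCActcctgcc
Asns, CARE, chr6:7693217-7693292, minus strand: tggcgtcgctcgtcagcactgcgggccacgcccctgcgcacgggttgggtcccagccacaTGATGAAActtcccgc
Ppp1r15a, CRE, chr7:45526265-45526340, minus strand: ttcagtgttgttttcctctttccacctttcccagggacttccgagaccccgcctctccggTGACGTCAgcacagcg
Hspa5, ER stress element, chr2:34771965-34772051, plus strand: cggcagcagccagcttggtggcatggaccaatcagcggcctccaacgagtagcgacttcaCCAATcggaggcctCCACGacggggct
Relative to the start site, the CARE lay at -110 to -103 in Atf3, at -193 to -186 in Chac1, at -23 to -16 in Asns and at 15 to 22 in Trib3.

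Values are log2 intensities relative to the array's 75th percentile of all probes, so 0 is a probe as bright as that percentile. All 10 genes were well above background on all 20 arrays. The 75th percentile ran from 146.7 to 357.9 intensity units, and 56.8% to 67.3% of probes were well above background. By group the percentile ran from 146.7 to 220.5 in Control, from 162.1 to 280.8 in IRI and from 173.8 to 357.9 in IRI+Hemin. It ran from 221.6 to 303.7 in IPC+IRI and from 255.7 to 323.5 in Hemin, both above every Control array. A gene was called in a comparison at a Benjamini-Hochberg adjusted p below 0.05 from limma, over all genes tested in that comparison. Kidney markers were present: all 8 proximal tubule, all 4 podocyte and all 5 endothelial markers were above background on every array. The arrays of a group shared 1 slide with no other group, so that effects of slide and of group cannot be told apart. Control and IRI were scanned on the same day, as were IPC+IRI and Hemin, and IRI+Hemin on another day. The comparisons IRI versus Control and IPC+IRI versus Hemin thus lay within 1 scan day, and all others crossed scan days. Because whole kidney was used, a change in the number of cells of a type and a change of RNA per cell cannot be told apart.

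**Figure D1:**
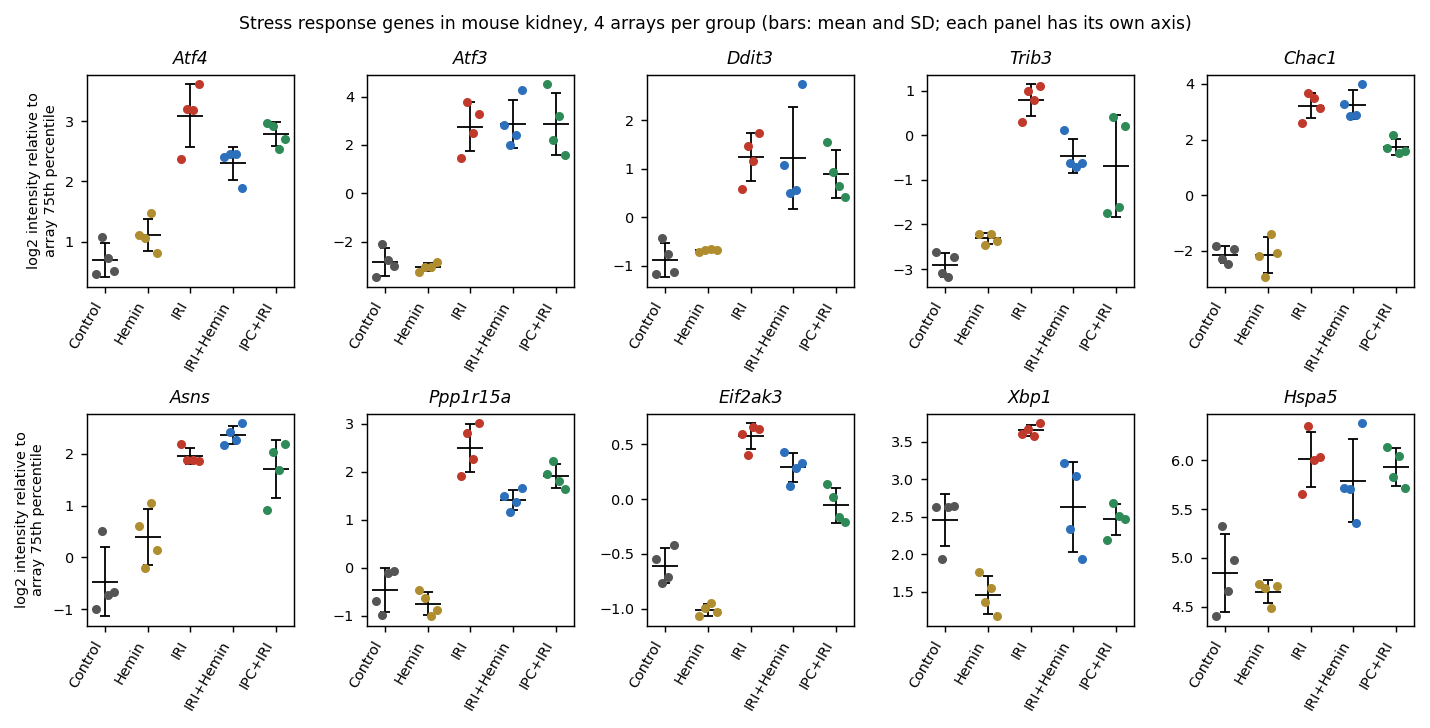
Log2 intensity relative to the array's 75th percentile (vertical axes, 1 scale per gene) of the 10 genes on each of 20 arrays, by group; points are arrays, and bars give the mean and SD of 4 arrays. Every array of the 3 groups with ischemia lies above every Control and Hemin array for 8 of the 10 genes (4.56% of all 19051 genes tested for the interaction); Asns in IPC+IRI (from 0.92) overlaps Hemin (up to 1.05), and for Xbp1 IRI lies above all other groups (3.59 to 3.75) and Hemin below them (1.17 to 1.76), with Control at 1.94 to 2.65.

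The comparison IRI versus Control asks how these genes differed after ischemia and reperfusion. No sham operation is recorded, so effects of ischemia and of the operation itself cannot be told apart. The same holds for each comparison of a group with ischemia with Control or Hemin. All 10 were higher in IRI, by 2.25-fold to 47.6-fold, with a median log2 fold change of 2.41. Of all 17706 genes tested, 17.1% were called higher and 33.9% lower, and their median log2 fold change was -0.17. All 10 rose at least 2-fold, as did 5.97% of all genes, and 7 rose at least 3-fold, as did 2.8% of all genes. For none of the 10 did the 4 IRI arrays overlap the 4 Control arrays, which gives an exact two-sided permutation p of 0.029, the smallest that 4 against 4 arrays allow. Of all genes tested, 14.8% lay higher in IRI without overlap. The 7 genes past 3-fold are the transcription factors Atf3, Atf4 and Ddit3 and the effectors Chac1, Trib3, Ppp1r15a and Asns. Eif2ak3, Xbp1 and Hspa5, the genes of the ER sensor, the ER transcription factor and the chaperone, rose between 2.25-fold and 2.29-fold.

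Atf4 encodes the factor at the centre of the integrated stress response. It lay at 0.46, 1.07, 0.73 and 0.51 on the Control arrays. It lay at 2.37, 3.20, 3.18 and 3.61 on the IRI arrays, 5.27-fold higher on average (log2 fold change 2.40 ± 0.22 SE, adjusted p = 1.79e-07). The lowest IRI array was thus more than 1 log2 unit above the highest Control array. IRI+Hemin arrays lay at 2.40, 2.46, 2.45 and 1.89, and IPC+IRI arrays at 2.97, 2.92, 2.54 and 2.70. Hemin arrays, at 1.11, 1.06, 1.47 and 0.82, overlapped Control. The order of the means was IRI, IPC+IRI, IRI+Hemin, Hemin and Control. In that order IRI and IPC+IRI did not differ past the threshold (-0.31 ± 0.22 SE, adjusted p = 0.267), nor did IPC+IRI and IRI+Hemin (0.49 ± 0.22 SE, adjusted p = 0.155) or Hemin and Control (0.42 ± 0.22 SE, adjusted p = 0.146).

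Atf3 encodes a stress factor of the ATF family that responds to many kinds of injury. It had the highest fold change of the 10 genes in IRI, 47.6-fold (5.57 ± 0.58 SE, adjusted p = 6.93e-07). Control arrays lay at -3.44, -2.07, -2.76 and -2.98, and Hemin arrays at -3.25, -3.04, -3.05 and -2.84. These are dim values, yet well above background on every array. IRI arrays spread from 1.47 over 2.50 and 3.30 to 3.78, IRI+Hemin arrays from 2.01 over 2.40 and 2.83 to 4.29, and IPC+IRI arrays from 1.59 over 2.19 and 3.21 to 4.51. The 3 groups with ischemia overlapped, with means of 2.76 ± 1.01 (SD, n = 4), 2.88 ± 0.99 and 2.88 ± 1.28. Neither IRI+Hemin (0.12 ± 0.58 SE, adjusted p = 0.881) nor IPC+IRI (0.12 ± 0.58 SE, adjusted p = 0.887) was called against IRI.

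Ddit3 encodes CHOP, a factor downstream of ATF4 known for its part in cell death under ER stress. It was 4.34-fold higher in IRI than in Control (2.12 ± 0.38 SE, adjusted p = 0.000191). Control arrays ran from -1.18 to -0.44 and IRI arrays from 0.58 to 1.74. Hemin arrays lay close together, between -0.72 and -0.65. In IRI+Hemin, replicate 4 lay at 2.74, and the other arrays at 1.08, 0.51 and 0.55. IPC+IRI arrays lay at 1.55, 0.92, 0.65 and 0.41. None of the comparisons among the 3 groups with ischemia was called for Ddit3, and their arrays overlapped.

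Trib3 encodes a pseudokinase that binds and restrains ATF4 and CHOP. It lay at -2.62, -3.08, -3.18 and -2.72 on Control arrays and at 0.30, 0.99, 0.80 and 1.10 on IRI arrays, a 13.0-fold difference (3.70 ± 0.38 SE, adjusted p = 6.04e-07). IRI+Hemin arrays lay at 0.11, -0.61, -0.71 and -0.62, all below the lowest IRI array. IPC+IRI arrays fell into a low and a high pair: replicates 1 and 3 lay at -1.75 and -1.62, and replicates 2 and 4 at 0.41 and 0.20. Of these arrays only replicate 2 reached the range of the IRI arrays. Hemin arrays, from -2.46 to -2.20, lay above all Control arrays, but the difference was not called (0.59 ± 0.38 SE, adjusted p = 0.239).

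Chac1 encodes an enzyme that breaks down glutathione and is a target of ATF4 and CHOP. It was 41.0-fold higher in IRI than in Control (5.36 ± 0.31 SE, adjusted p = 7.85e-10). Control arrays lay at -1.84, -2.29, -2.49 and -1.93 and IRI arrays at 2.60, 3.66, 3.48 and 3.15. IRI+Hemin arrays lay at 3.29, 2.85, 2.88 and 3.99 and overlapped the IRI arrays. IPC+IRI arrays lay at 1.69, 2.16, 1.53 and 1.59, below every array of IRI and IRI+Hemin and above every Control array. Hemin arrays ran from -2.94 to -1.40 and overlapped Control. Chac1 thus had 3 levels over the 5 groups, with Control and Hemin lowest and with IPC+IRI between them and the other groups.

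Asns encodes asparagine synthetase, which makes asparagine and is raised when amino acids are short. It was 5.37-fold higher in IRI (2.42 ± 0.31 SE, adjusted p = 6.39e-06), with Control arrays of up to 0.51 and IRI arrays from 1.87 to 2.19. IRI+Hemin held the highest mean, 2.37 ± 0.18 (SD, n = 4), but its difference from IRI was not called (0.41 ± 0.31 SE, adjusted p = 0.300). IPC+IRI arrays ran from 0.92 to 2.18. Ppp1r15a encodes GADD34, which brings a phosphatase to eIF2 and so ends the block on translation. It was 7.77-fold higher in IRI (2.96 ± 0.24 SE, adjusted p = 3.64e-08). Its Control arrays ran from -0.99 to -0.06, its Hemin arrays from -1.01 to -0.47 and its IRI arrays from 1.91 to 3.00. IRI+Hemin arrays, from 1.16 to 1.65, lay below all IRI arrays, and IPC+IRI arrays ran from 1.63 to 2.23.

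Eif2ak3 encodes PERK. Its arrays lay close together within each group, with SDs from 0.05 to 0.16, so that a small difference could pass the test. Control arrays ran from -0.76 to -0.42 and IRI arrays from 0.41 to 0.65, a 2.27-fold difference (1.18 ± 0.11 SE, adjusted p = 1.25e-07). IRI+Hemin arrays ran from 0.12 to 0.43, IPC+IRI arrays from -0.21 to 0.13 and Hemin arrays from -1.07 to -0.94. The means fell in the order IRI, IRI+Hemin, IPC+IRI, Control and Hemin, and all neighbours in that order were called different. The order is that of the brighter of its 2 probes. With the mean of log2 values over probes, IRI+Hemin lay above IRI (0.43, adjusted p = 0.0172) and Hemin above Control (0.15, adjusted p = 0.413). That mean gives equal weight to the dimmer probe, which was not well above background on any Control array. In 17 of 31 alternatives the call between IPC+IRI and IRI+Hemin was lost.

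Xbp1 encodes the transcription factor made from RNA that IRE1 splices. Control arrays lay at 2.63, 1.94, 2.63 and 2.65 and IRI arrays at 3.60, 3.68, 3.59 and 3.75 (1.19 ± 0.23 SE, adjusted p = 0.00035). IRI+Hemin arrays lay at 3.22, 2.34, 3.04 and 1.94 and IPC+IRI arrays at 2.19, 2.69, 2.52 and 2.47. Both groups overlapped Control and lay below every IRI array. Hemin arrays were lowest, at 1.76, 1.36, 1.55 and 1.17, below every Control array. Hspa5 encodes BiP, the main chaperone of the ER. It was 2.25-fold higher in IRI (1.17 ± 0.21 SE, adjusted p = 0.000163), with Control arrays from 4.40 to 5.33 and IRI arrays from 5.66 to 6.35. IRI+Hemin arrays ran from 5.36 to 6.38, IPC+IRI arrays from 5.72 to 6.13 and Hemin arrays from 4.49 to 4.73. None of the comparisons among the 3 groups with ischemia was called for Hspa5.

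Against Control, 9 of the 10 genes were called higher in IPC+IRI and 9 in IRI+Hemin, and none lower. Of all genes tested, 23.2% were called higher and 32.7% lower in IPC+IRI, and 24.4% higher and 33.2% lower in IRI+Hemin. At least 2-fold higher were 8 of the 10 in IPC+IRI, beside 7.97% of all genes, and 7 in IRI+Hemin, beside 8.35%. At least 3-fold higher were 7 in IPC+IRI, beside 3.49% of all genes, and 7 in IRI+Hemin, beside 3.35%. The gene not called was Xbp1 in both (0.01 ± 0.23 SE, adjusted p = 0.979 in IPC+IRI, and 0.17 ± 0.23 SE, adjusted p = 0.538 in IRI+Hemin). Atf3 was 51.6-fold higher in IPC+IRI and 51.8-fold in IRI+Hemin. Chac1 was 14.7-fold higher in IPC+IRI and 41.9-fold in IRI+Hemin. These comparisons and IRI versus Control share the Control arrays.

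Hemin alone was compared with Control to see whether the treatment itself moved these genes. Asns was called higher, 1.82-fold (0.87 ± 0.31 SE, adjusted p = 0.0374). Xbp1 was called 2.00-fold lower (SE 0.23 on the log2 scale, adjusted p = 0.0031) and Eif2ak3 1.32-fold lower (-0.40 ± 0.11 SE, adjusted p = 0.00724), and for both no Hemin array reached the Control arrays. The other 7 genes were not called, with log2 fold changes from -0.28 for Ppp1r15a to 0.59 for Trib3. Of all genes tested, 18.6% were called higher and 17.6% lower, so 3 of 10 is close to the background. Xbp1 alone was at least 2-fold lower, as were 5.97% of all genes. The arrays of Asns overlapped (-0.20 to 1.05 in Hemin), and its call was lost without Control replicate 1, 3 or 4 or without Hemin replicate 1 or 3 (adjusted p from 0.0872 to 0.127). Without scaling between arrays the counts were 3 higher and 0 lower, and with normexp background correction 0 higher and 1 lower. Over all genes 8824 were called higher and 490 lower without scaling, and 1976 and 1723 with normexp. The main setting gave 3446 and 3265. Eif2ak3 turned to 0.16 (adjusted p = 0.596) without scaling and to 0.15 (adjusted p = 0.413) with the mean of log2 values over probes. Without scaling the median of all genes moved as well, from 0.06 to 0.62.

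Ischemia, with its operation, was also compared within hemin-treated mice. All 10 genes were higher in IRI+Hemin than in Hemin, where 16.5% of all genes were called higher and 27.9% lower. No arrays of the 10 overlapped, as was so, in the same direction, for 17.1% of all genes. All 10 rose at least 2-fold (5.79% of all genes) and 6 at least 3-fold (2.31%). The fold changes ran from 2.19 for Hspa5 to 60.8 for Atf3. All 10 were likewise higher in IPC+IRI than in Hemin, the comparison within a scan day, where 13.2% of all genes were called higher and 22.8% lower. Of these, 9 rose at least 2-fold (5.28% of all genes) and 5 at least 3-fold (2.43%). Here the fold changes ran from 1.94 for Eif2ak3 to 60.5 for Atf3, and the arrays of Asns alone overlapped. Of all genes tested, 14% lay higher in IPC+IRI without overlap. Xbp1 was 2.26-fold higher in IRI+Hemin than in Hemin (1.18 ± 0.23 SE, adjusted p = 0.000603), beside 2.29-fold in IRI over Control.

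**Figure D2:**
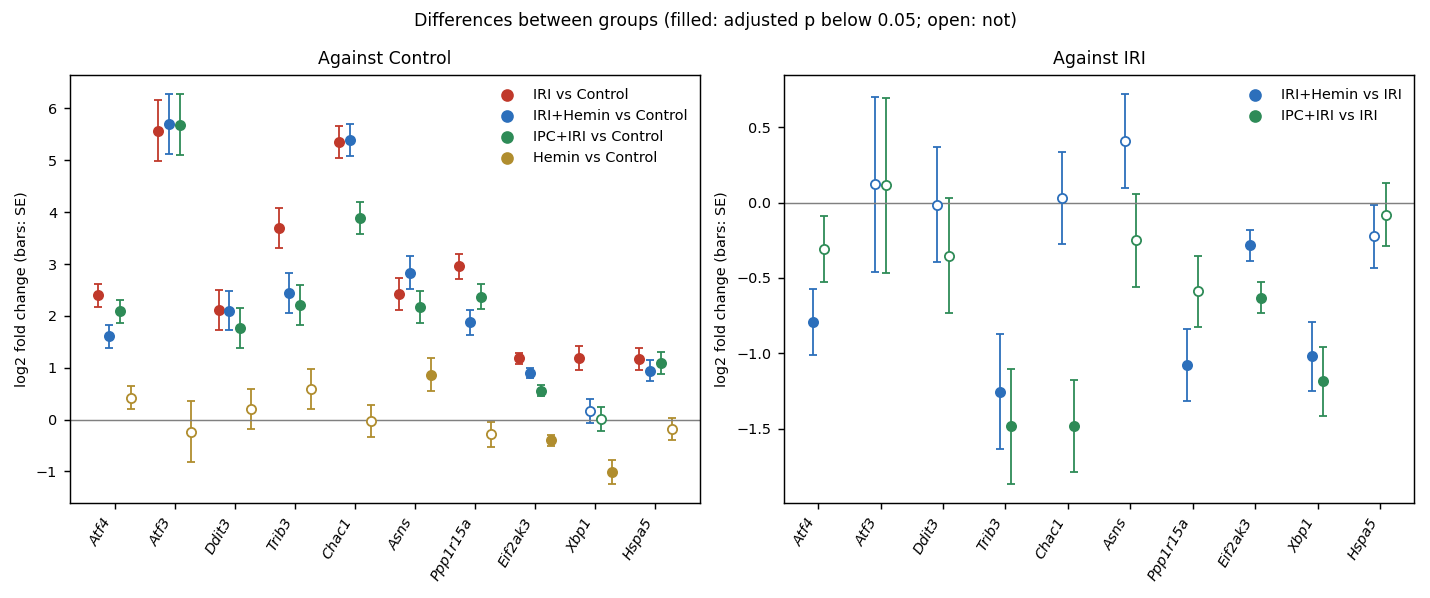
Log2 fold change (vertical axes, bars SE) of the 10 genes against Control (left) and against IRI (right); filled points passed an adjusted p of 0.05. All 10 were higher in IRI, all but Xbp1 in the other groups with ischemia, and the called differences against IRI, 5 for IRI+Hemin and 4 for IPC+IRI, were all below 0.

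The comparison IRI+Hemin versus IRI asks what hemin given beforehand did to the injured kidney. Of the 10 genes 5 were lower in IRI+Hemin and none higher, where 18.2% of all genes were called lower and 26.4% higher. At least 2-fold lower were 3, beside 5.04% of all genes. The 10 genes were chosen with earlier results known, and all were high in IRI. Their values against IRI may therefore lean lower than those of all genes. Trib3 was 2.38-fold lower (-1.25 ± 0.38 SE, adjusted p = 0.0124), and no IRI+Hemin array reached the IRI arrays. The dimmer of its 2 probes gave -0.48 (adjusted p = 0.24). Ppp1r15a was 2.11-fold lower (-1.08 ± 0.24 SE, adjusted p = 0.00145) and Xbp1 2.03-fold lower (-1.02 ± 0.23 SE, adjusted p = 0.00178), again without overlap. Atf4 was 1.73-fold lower (-0.79 ± 0.22 SE, adjusted p = 0.00744), and its lowest IRI array, 2.37, lay within the range of IRI+Hemin. Eif2ak3 was 1.22-fold lower (-0.28 ± 0.11 SE, adjusted p = 0.0359). With the mean of log2 values over probes it turned to 0.43 (adjusted p = 0.0172). Without scaling it turned to 0.080 (adjusted p = 0.822), where the median of all genes moved from 0.08 to 0.45. Chac1 (0.03 ± 0.31 SE), Ddit3 (-0.01 ± 0.38 SE), Atf3, Asns and Hspa5 (-0.22 ± 0.21 SE) were not called. Without scaling between arrays none of the 5 was called, and in the deposited log2 table, scaled to its own 75th percentiles, 2 were called lower. Over all genes 620 were called lower without scaling and 1723 in that table, beside 3241 in the main setting. The call of Eif2ak3 was lost without IRI replicate 1, 3 or 4 or without IRI+Hemin replicate 2 or 3 (adjusted p from 0.0624 to 0.113).

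The comparison IPC+IRI versus IRI asks the same of a preceding short ischemia. It uses the same 4 IRI arrays as IRI+Hemin versus IRI, so the calls of both comparisons are not independent. Of the 10 genes 4 were lower in IPC+IRI and none higher, where 17.9% of all genes were called lower and 26.3% higher. At least 2-fold lower were 3, beside 4.41% of all genes. Chac1 was 2.79-fold lower (-1.48 ± 0.31 SE, adjusted p = 0.000909) and Xbp1 2.27-fold lower (-1.19 ± 0.23 SE, adjusted p = 0.000557), both without overlap. Trib3 was 2.80-fold lower on average (-1.48 ± 0.38 SE, adjusted p = 0.00436), and this mean stands for the low and the high pair of arrays described above. Eif2ak3 was 1.55-fold lower (-0.63 ± 0.11 SE, adjusted p = 0.000167), also without overlap, but turned to 0.35 (adjusted p = 0.0485) with the mean of log2 values over probes. Ppp1r15a lay just short of the threshold (-0.59 ± 0.24 SE, adjusted p = 0.0518) and was called without IRI replicate 1, without IPC+IRI replicate 2 or without Control replicate 2 or 4 (adjusted p from 0.013 to 0.048). Atf4 was not called (adjusted p = 0.267) but was so without IRI replicate 1, its lowest IRI array (-0.55, adjusted p = 0.0302). Without scaling between arrays only Chac1 was called, so the other 3 calls depended on that step. Over all genes 605 were called lower without scaling, beside 3155 with it.

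The 2 pretreated groups were then set against each other. In IPC+IRI versus IRI+Hemin, where 5.65% of all genes were called lower and 6.42% higher, Chac1 and Eif2ak3 were called lower and none of the 10 higher. Chac1 was 2.85-fold lower (-1.51 ± 0.31 SE, adjusted p = 0.00518), with no overlap between the groups, and it alone was at least 2-fold lower, as were 1.08% of all genes. It was called in each of the 31 alternatives, with log2 fold changes from -1.65 to -1.26. Eif2ak3 was 1.27-fold lower (-0.35 ± 0.11 SE, adjusted p = 0.0405), its arrays overlapped, and 14 of 31 alternatives kept the call. Leaving out any of 11 arrays (all 4 of Hemin, IPC+IRI replicates 2, 3 and 4, IRI replicate 3 and IRI+Hemin replicates 1, 3 and 4) moved its adjusted p to between 0.0501 and 0.101. Trib3, called lower than IRI in both pretreated groups, did not differ past the threshold between them (-0.23 ± 0.38 SE, adjusted p = 0.731). Xbp1 did not either (-0.17 ± 0.23 SE, adjusted p = 0.678).

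Whether ischemia, with its operation, raised a gene less in hemin-treated mice was tested as an interaction. It is the difference IRI+Hemin minus Hemin less the difference IRI minus Control. Of all genes tested, 1.95% had a called interaction below 0 and 5.84% above 0. Of the 10 genes Atf4 and Trib3 were called below 0 and none above, both by at least 2-fold, as were 0.85% of all genes. Atf4 rose 2.27-fold with ischemia after hemin and 5.27-fold without, an interaction of -1.21 ± 0.31 SE (adjusted p = 0.0237). Trib3 rose 3.62-fold after hemin and 13.0-fold without, an interaction of -1.84 ± 0.54 SE (adjusted p = 0.0438). For Xbp1 the interaction was -0.02 ± 0.33 SE, for Chac1 0.05 ± 0.43 SE and for Hspa5 -0.04 ± 0.30 SE, none of them called. With normexp correction, without scaling or in the values as deposited, 0 of the 10 genes had a called interaction. The interaction of Atf4 was also lost without Hemin replicate 3 (-1.09, adjusted p = 0.0566). That of Trib3 lost its call when any of 14 arrays was left out (all 4 of Control, all 4 of Hemin, IRI replicates 2, 3 and 4 and IRI+Hemin replicates 2, 3 and 4), with an interaction from -1.93 to -1.74 and an adjusted p from 0.0523 to 0.0814. The 4 groups lay on 4 slides and 3 scan days. The interaction takes in the same IRI arrays, with a minus sign.

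Within groups, the arrays with more Atf3 also had more Ddit3 and Hspa5. Over the deviations of the 20 arrays from their group means, Pearson's r was 0.84 for Atf3 with Ddit3, 0.79 for Atf3 with Hspa5 and 0.77 for Ddit3 with Hspa5. The other 42 pairs of the 10 genes ran from -0.63, for Xbp1 with Hspa5, to 0.48, for Ddit3 with Chac1, and the median over all 45 pairs was 0.20. On replicate 4 of IRI+Hemin, Atf3 (4.29), Ddit3 (2.74), Hspa5 (6.38), Chac1 (3.99), Asns (2.59) and Ppp1r15a (1.65) were highest of their group there, and Atf4 (1.89) and Xbp1 (1.94) lowest. That array had a 75th percentile of 173.8 intensity units, against 251.4 to 357.9 on the others of its group, and 59.5% of its probes were well above background, against 64.9% to 66.9%. Control replicate 2 and IPC+IRI replicate 1 likewise had the lowest 75th percentile of their group (146.7 and 221.6) and its highest Atf3, Ddit3 and Hspa5. In IRI the lowest percentile (162.1, replicate 3) went with none of these highest values, and in Hemin (255.7, replicate 4) with that of Atf3 alone. The part of array intensity in the values was not tested. In IPC+IRI, the replicates with the lower Trib3 values, 1 and 3, were those with the higher Atf3 values, 4.51 and 3.21. The 3 genes were read by separate probes on the same array, so that they share the RNA sample, the array and its 75th percentile. These values are a description, and no p was taken.

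**Figure D3:**
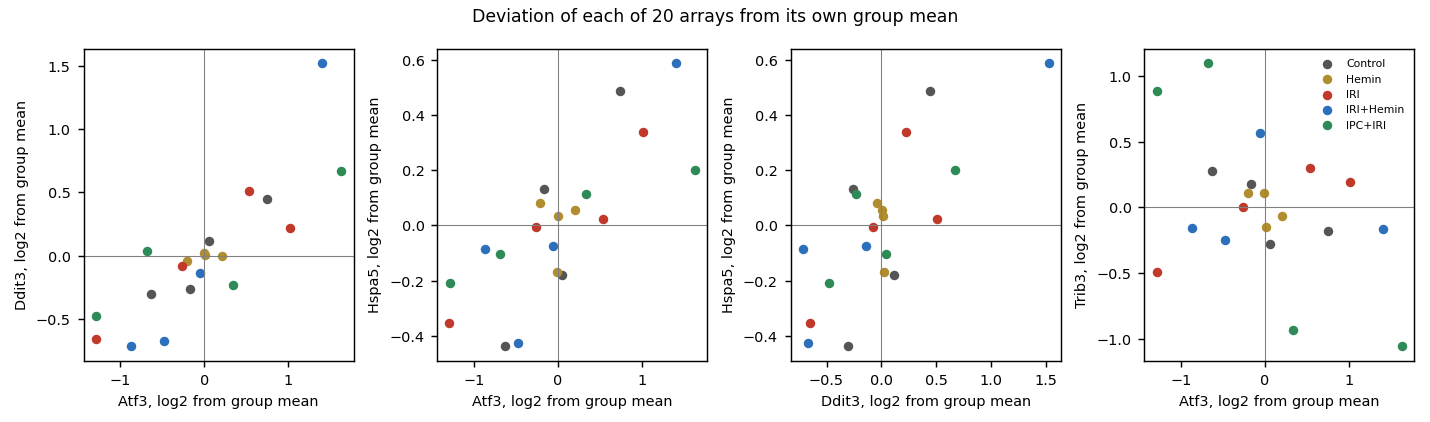
Deviation of each of the 20 arrays from its own group mean (both axes, log2 units) for 4 pairs of genes, coloured by group. Atf3, Ddit3 and Hspa5 deviate together (r of 0.77 to 0.84), while the IPC+IRI arrays with more Atf3 have less Trib3.

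Over the 20 arrays together, the genes most like each of the 10 were taken from 14524 genes well above background on every array. Their Pearson's r, which takes in the differences between groups, ran from 0.94 to 0.98. Klf6, a zinc finger factor, was most like Atf3 (0.98), Prkx most like Atf4 (0.97) and Slc38a2, an amino acid transporter, most like Chac1 (0.98). Akap12 was most like Trib3 (0.95), Zfand5 most like Ppp1r15a (0.98), Myc most like Eif2ak3 (0.97), Slc25a30 most like Xbp1 (0.96) and Nr4a1 most like Hspa5 (0.97). For Ddit3 the first 3 were the transcript AK085055 (0.96), Impact (0.95), whose product restrains the eIF2 kinase GCN2, and Atf3 itself (0.94). For Asns the first 2 were the entries NAP066348-1 and LOC100047599, followed by Scarb2 (0.96).

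The other genes of the pathway were read from 3 lists. The first held 31 further targets of ATF4 and CHOP. In IRI versus Control 29 were tested, and 16 were higher and 4 lower (median log2 fold change 0.74), beside 17.1% and 33.9% of all genes. The largest called changes were those of Gdf15, a secreted stress cytokine (4.32 ± 0.31 SE, adjusted p = 9.98e-09), Mthfd2, a mitochondrial enzyme of folate metabolism (2.87), the C/EBP factor Cebpb (2.69) and Gadd45a, a growth arrest gene (2.58). Also higher, and picked outside the naming rule after their values were seen, were the amino acid transporters Slc38a2 (2.38), Slc7a5 (2.37) and Slc7a1 (1.90). Of the list's other transport genes that were tested, Slc3a2 was higher by less (0.64, adjusted p = 0.00232) and Slc6a9 was not called (0.46, adjusted p = 0.0547). The 4 lower genes, also outside that rule, were Stc2 (-1.11), Aldh1l2 (-0.52), Tnfrsf10b (-0.51) and Psph (-0.35). Without scaling between arrays 16 were higher and 0 lower, and with normexp correction 16 were higher and 1 lower.

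The second list held 37 genes of ER folding and degradation, all tested. In IRI versus Control 9 were higher and 5 lower, with a median of 0.04, beside 17.1% and 33.9% of all genes. The share higher was thus near that of all genes. Higher were Dnajb9, a co-chaperone of BiP (1.78 ± 0.24 SE, adjusted p = 9.94e-06), Herpud1, a part of ER degradation (1.16), and Wfs1 (0.70). Sdf2l1, an ER resident protein, was lower (-0.99, adjusted p = 0.0102). In the deposited table, scaled to its own 75th percentiles, 3 were higher and 9 lower. With the percentile taken over probes above background on all arrays, 7 were higher and 9 lower. The third list held 19 genes of the ER sensors, the other eIF2 kinases and eIF2 itself, of which 17 were tested. Here 6 were higher and 2 lower (median 0.14), beside the same shares of all genes. Atf6, an ER sensor (1.13), Eif2s2, a subunit of eIF2 (0.83), and Ppp1r15b, the constant partner of the eIF2 phosphatase (0.66), were higher, and the adaptor Nck1 was lower (-0.75). In the values as deposited 2 were higher and 4 lower, with the percentile over probes above background 4 and 4, with quantile normalization 4 and 3, and with normexp correction 2 and 0.

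**Figure D4:**
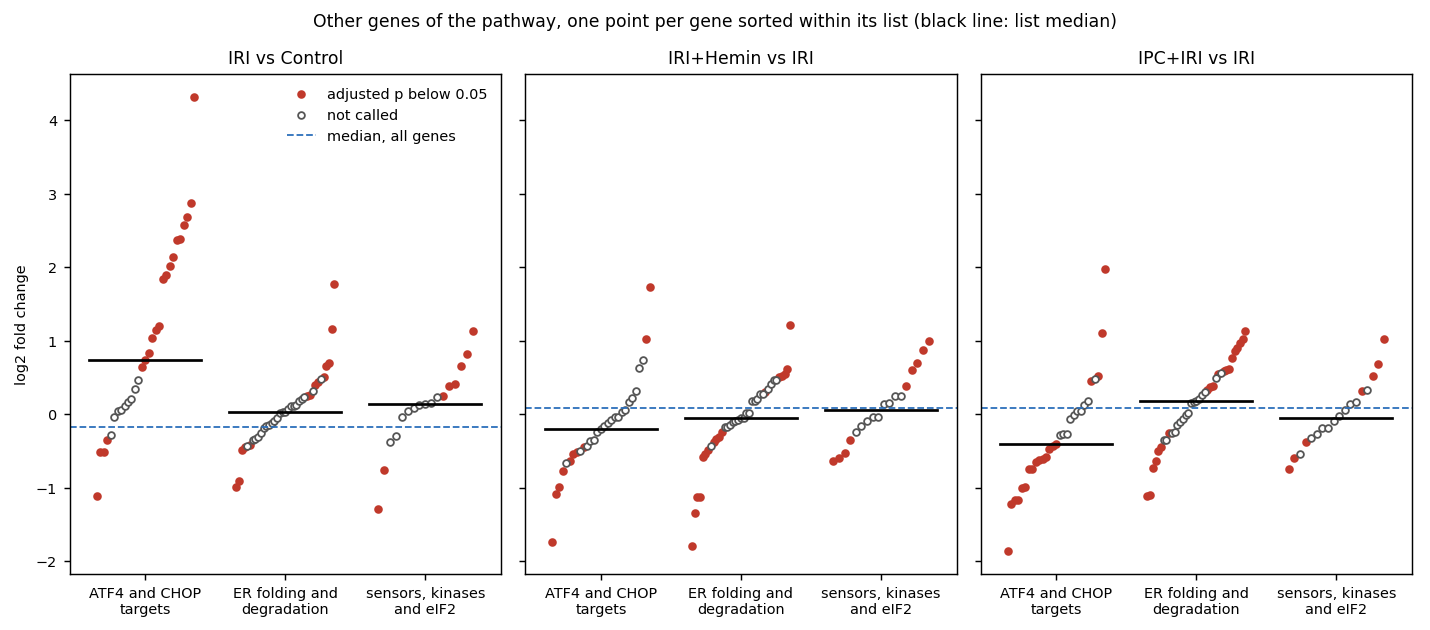
Log2 fold change (vertical axis) of the other pathway genes in 3 comparisons, 1 point per gene sorted within its list; red points passed an adjusted p of 0.05, black lines give list medians and the dashed line the median of all genes tested. The targets of ATF4 and CHOP lie highest in IRI versus Control (median 0.74, all genes -0.17) and below all genes in IPC+IRI versus IRI (median -0.40, all genes 0.09).

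In IPC+IRI versus IRI, 15 of the 29 targets of ATF4 and CHOP were lower and 4 higher (median -0.40, beside 0.09 over all genes, of which 17.9% were lower and 26.3% higher). Gdf15 was lower (-1.16, adjusted p = 0.00537), as were Mthfd2 (-0.74, adjusted p = 0.0458) and Gadd45a (-0.74, adjusted p = 0.0278). For Cebpb the difference was -0.28 (adjusted p = 0.368). In the values as deposited 4 were higher and 7 lower, and without scaling 5 were higher and 3 lower. In IRI+Hemin versus IRI, 8 of the 29 were lower and 2 higher (median -0.20), beside 18.2% and 26.4% of all genes. Gadd45a was lower (-1.08, adjusted p = 0.00288), while Gdf15 (-0.66, adjusted p = 0.0875) and Mthfd2 (-0.49, adjusted p = 0.178) were not called. With normexp correction 3 were higher and 5 lower, in the table as deposited the counts were 4 and 4, and without scaling 5 and 3. In the interaction, 2 of the 29 targets were called below 0 and 1 above, beside 1.95% and 5.84% of all genes. These were Gadd45a (-1.38 ± 0.37 SE, adjusted p = 0.029) and, picked after their values were seen, Slc7a5 (-1.21, adjusted p = 0.0111) and, in the opposite direction, Psat1 (1.31, adjusted p = 0.0226).

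Among the genes of ER folding and degradation, 11 of 37 were lower and 6 higher in IRI+Hemin versus IRI, and 7 lower and 13 higher in IPC+IRI versus IRI. Of all genes, 18.2% were lower and 26.4% higher in the former, and 17.9% lower and 26.3% higher in the latter, so that the 7 lower are near the background. Dnajb9 was lower in both (-1.35, adjusted p = 0.000252, and -1.09, adjusted p = 0.00138) and was also lower in Hemin than in Control (-0.85, adjusted p = 0.0104). Pdia4 and Calr, ER folding proteins picked after their values were seen, went the same way: Pdia4 lay at -1.79 in IRI+Hemin versus IRI, -1.11 in IPC+IRI versus IRI and -1.11 in Hemin versus Control, and Calr at -1.12, -0.73 and -0.62. Their direction was not shared by the whole list, since Sdf2l1 was higher in IPC+IRI than in IRI (1.02, adjusted p = 0.0104). In the deposited table the split in IRI+Hemin versus IRI was 11 higher and 5 lower, with normexp correction 6 and 6, and without scaling 14 and 4. The split of all genes moved too, to 5921 and 1723, 2627 and 3272, and 6544 and 620 in that order. It was 4698 and 3241 in the main setting. In IPC+IRI versus IRI the split of the list was 15 and 4 in the deposited table and 18 and 1 without scaling. That of all genes was 5296 and 1934 in the deposited table and 5904 and 605 without scaling, beside 4636 and 3155 in the main setting. Of the sensors and eIF2 genes, 18 were tested against IRI. In IRI+Hemin 5 were higher and 4 lower (without scaling 6 and 0, in the values as deposited 6 and 2, with normexp correction 6 and 3), and in IPC+IRI 4 were higher and 3 lower (without scaling 5 and 0, with quantile normalization 2 and 4).

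The probes of a gene did not always agree. Trib3 had 2 probes to the same transcript, at chr2:152163355-152163414 and chr2:152164025-152164084 (mm9, minus strand). The brighter rose by 4.07 log2 units and the dimmer by 2.36 in IRI versus Control. In IRI+Hemin versus IRI the brighter gave -1.42 (adjusted p = 0.00862) and the dimmer -0.48 (adjusted p = 0.24), which was not called. Their interactions were -2.13 (adjusted p = 0.0307) and -0.80 (adjusted p = 0.323). Eif2ak3 had a bright probe to its RefSeq transcript (chr6:70854787-70854846, plus strand) and a dim probe to the cDNA AK041698 (chr6:70806815-70806874, plus strand), which was not well above background on any Control array. The bright probe was lower in IPC+IRI than in IRI (-0.70, adjusted p = 0.000102) and the dim probe higher (1.40, adjusted p = 0.000386). In IRI+Hemin versus IRI they gave -0.33 (adjusted p = 0.0245) and 1.19 (adjusted p = 0.00143). The gene value follows the bright probe because probes were averaged before the log. The mean of log2 values turned both differences of Eif2ak3 above 0 (0.35, adjusted p = 0.0485, and 0.43, adjusted p = 0.0172).

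A dim probe described as part of MyD116, to the sequence TC1733503 (chr7:52778680-52778739, minus strand, mm9), lies near the Ppp1r15a probe (chr7:52779582-52779641) and was not part of the gene value. It was named after its values were seen. It gave 0.28 (adjusted p = 0.423) in IRI versus Control, where the Ppp1r15a probe gave 2.96. In IRI+Hemin versus IRI it was higher (0.71, adjusted p = 0.04), where the Ppp1r15a probe was lower (-1.08).

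**Figure D5:**
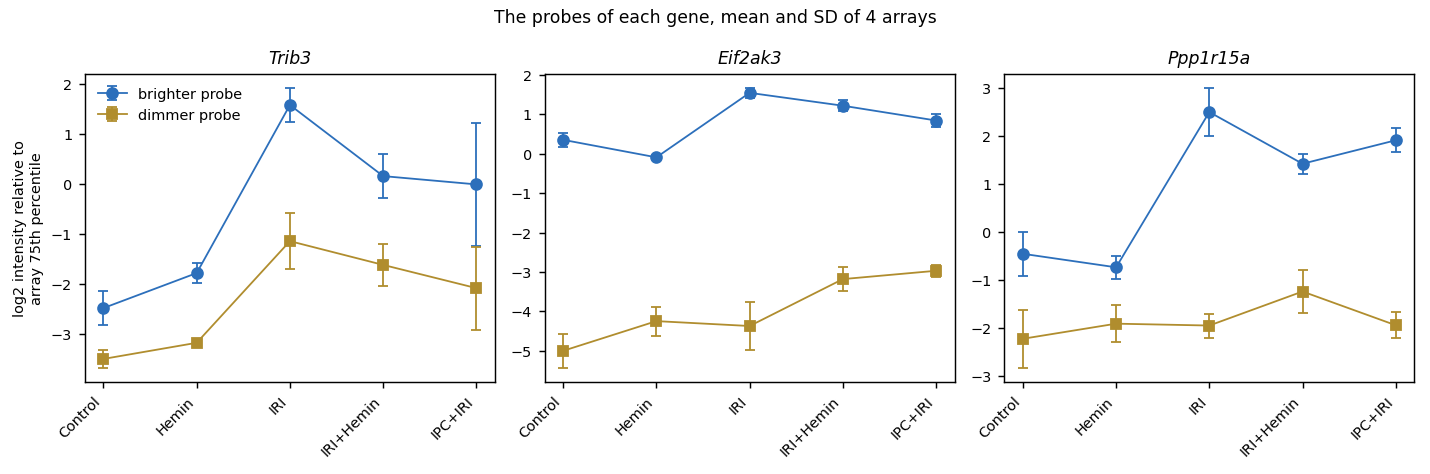
Mean and SD of 4 arrays by group, as log2 intensity relative to the array's 75th percentile. Trib3 and Eif2ak3 have a brighter and a dimmer probe each. The panel of Ppp1r15a shows its probe and the dimmer MyD116 probe near it, which was not part of the gene value. Both Trib3 probes peak in IRI. The dimmer Eif2ak3 probe is highest in IPC+IRI (-2.97) and the dimmer MyD116 probe in IRI+Hemin (-1.25).

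Markers of other cell types moved beside these genes. Their sums were taken on the linear scale, so each follows its brightest markers. The summed level of the neutrophil markers, read from 5 of the 6 listed because Ly6g has no probe by that name, ran from -2.13 to -0.83 in Control and from -1.15 to 0.64 in Hemin. It ran from 1.30 to 3.02 in IRI, from 1.09 to 3.26 in IRI+Hemin and from 2.66 to 4.28 in IPC+IRI. Of these 5 markers 3 were below background on all 4 Control arrays and 2 on all 4 Hemin arrays. The macrophage and monocyte sum, over 6 markers, ran from 1.65 to 2.32 in Control, from 1.90 to 2.25 in IRI, from 2.01 to 2.95 in IRI+Hemin and from 2.49 to 4.37 in IPC+IRI. The proximal tubule sum, over 8 markers, ran from 8.81 to 8.95 in Control and from 8.65 to 8.72 in Hemin. It ran from 8.27 to 8.77 in IRI, from 8.07 to 8.58 in IRI+Hemin and from 8.25 to 8.46 in IPC+IRI. Against IRI, 3 of 5 endothelial markers were called lower in IPC+IRI and none higher (median -0.63), and in IRI+Hemin 1 was lower and 2 higher. The endothelial sum ran from 3.52 to 4.01 in IRI, from 3.99 to 4.45 in IRI+Hemin and from 2.94 to 4.45 in IPC+IRI. Of the 6 macrophage and monocyte markers, 4 were called higher and 1 lower in IPC+IRI versus IRI, and none in IRI+Hemin versus IRI. From Control to IRI the mean of Cd68 went from -2.53 to -0.30 and that of Adgre1 from -2.22 to -3.07. The part of these markers in the results on these genes was not tested. As a check of injury, Lcn2, a tubular injury marker, was higher in IRI than in Control (5.06, adjusted p = 8.11e-08). It was lower than IRI in IPC+IRI (-2.06, adjusted p = 0.001) and in IRI+Hemin (-1.32, adjusted p = 0.0188), as were the called members, and its part in those results was not tested. Hmox1, the gene hemin is meant to raise, was higher in IRI (4.67, adjusted p = 4.21e-07) and not called in Hemin versus Control (0.56, adjusted p = 0.36). For Havcr1, a tubular injury marker, the difference in IRI versus Control was 0.79 (adjusted p = 0.0502). It was lower in IRI+Hemin than in IRI (-0.92, adjusted p = 0.0293), was not called in IPC+IRI versus IRI (0.25, adjusted p = 0.547) and was higher in IPC+IRI than in Control (1.05, adjusted p = 0.0113).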

How the data were processed

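Kidney RNA of 5 groups of 4 samples was hybridised, with the dye Cy3, to 1-colour Agilent arrays of the whole mouse genome. Per the labels, Agilent Feature Extraction 9.5.3.1 read the scans. Its processed signal, the intensity deposited by the authors for each spot, is background-subtracted and not scaled between arrays. The authors also deposited a table of log2 values, which equal log2 of that signal and were used as an alternative.

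Control spots and spots called non-uniform or outlying by the scanner software were left out, and saturated spots were kept. Spots of a probe and then probes of a gene were averaged on the linear scale, and the 75th percentile of each array was set to 0 on the log2 scale. Genes entered a test if 3 of 4 arrays of any group compared were well above background. At most 1 value could be missing over all arrays compared. limma 3.58.1 in R 4.3.3 fitted 5 group means (lmFit and eBayes, 15 degrees of freedom left), with Benjamini-Hochberg adjustment in each of 10 comparisons and calls at 0.05. The study's methods name SAM on gene means, for which limma stands in, and SAM was not run. The fit was tested on simulated data. For single genes, an exact two-sided permutation test over the 70 splits of 4 against 4 arrays was added.

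The 10 genes and the pathway and marker lists were chosen with earlier results of these data known. Named were all 10 genes, Hmox1, Havcr1 and Lcn2. Also named were the 4 called genes of each pathway list with the largest change in IRI versus Control (well above background on every array compared). The 3 genes most correlated with each of the 10 were taken. All 3 are printed for Ddit3 and Asns, and the first alone for the others. Marker lists covered proximal tubule, thick limb and distal tubule, collecting duct, podocyte, endothelium, neutrophil, macrophage and monocyte, lymphocyte and fibroblast. In IRI versus Control none of the 5 thick limb and distal tubule markers was called, 4 of 8 proximal tubule and 2 of 4 podocyte markers were lower, 2 of 2 neutrophil markers tested and 1 of 5 macrophage markers tested were higher, 1 of 4 collecting duct markers was higher and 1 lower, 1 of 5 endothelial markers was higher and 2 lower, and 1 of 4 fibroblast and 2 of 6 lymphocyte markers tested were lower. The number of arrays limits the precision. Alternatives covered background correction, scaling, the averaging of probes, the filter, the groups fitted, the replicate number, the fold required and each array left out.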

Additional observations from a re-analysis of the deposited data

Results flagged for a closer look

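Of 50 sets of 4 arrays, 1 for each gene and group, 4 held an array far from the other 3, where chance gives about 1 in 20. Atf4 lay at 1.89 on IRI+Hemin replicate 4 and between 2.40 and 2.46 on the others. Trib3 lay at 0.11 on IRI+Hemin replicate 1 and between -0.71 and -0.61 on the others. Asns lay at 2.19 on IRI replicate 1 and between 1.87 and 1.89 on the others. Xbp1 lay at 1.94 on Control replicate 2 and between 2.63 and 2.65 on the others.

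Limma's interaction term compares the effect of ischemia, with its operation, between mice with and without hemin. Among the genes the naming rule gave, it was called for Atf4 (-1.21, adjusted p = 0.0237), Trib3 (-1.84, adjusted p = 0.0438) and Gadd45a (-1.38, adjusted p = 0.029). Of the 3 pathway lists, it was also called, outside that rule, for Slc7a5 (-1.21, adjusted p = 0.0111) and Ssr1 (-0.52, adjusted p = 0.012) and, in the opposite direction, for Psat1 (1.31, adjusted p = 0.0226) and Ern2 (1.10, adjusted p = 0.0248). With normexp correction, without scaling or in the values as deposited, neither Atf4 nor Trib3 was called. Trib3 also lost its call on leaving out any of 14 arrays and with the replicate number as a block, and its dimmer probe gave -0.80 (adjusted p = 0.323).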

How the results depend on the processing

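The 10 higher calls in IRI versus Control, and the 9 in IPC+IRI and in IRI+Hemin versus Control, had the same counts under every alternative of the adjusted p rule. Asking also for a 2-fold change gave 10, 8 and 7, and for a 3-fold rise 7 each. Single results kept their side of the threshold in 3004 cases, 80 of them with a change of sign in a value that was called in neither setting. A call was lost in 73 cases and gained in 12, and in 5, all for Eif2ak3, a called value turned direction. Without scaling between arrays Eif2ak3 gave 0.16 in Hemin versus Control and 0.080 in IRI+Hemin versus IRI. With the mean of log2 values over probes it gave 0.15, and 0.43 in IRI+Hemin versus IRI and 0.35 in IPC+IRI versus IRI. Without scaling the median of all genes moved from 0.06 to 0.62 in Hemin versus Control, from 0.08 to 0.45 in IRI+Hemin versus IRI and from 0.09 to 0.41 in IPC+IRI versus IRI. The counts of all genes called moved with the setting too. Without scaling 6544 were higher and 620 lower in IRI+Hemin versus IRI, beside 4698 and 3241 with it. For the calls that changed with other settings the cause was not tested. Array number limits all of these results.

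In Hemin versus Control (1 higher, 2 lower), normexp gave 0 and 1, no scaling 3 and 0, the percentile over probes above background 0 higher, the mean of log2 values 1 lower, the fold rules 0 and 1, and leaving out arrays 0 to 1 higher. In IPC+IRI versus IRI (4 lower), no scaling gave 1 lower and the mean of log2 values 1 higher. In IRI+Hemin versus IRI (5 lower), no scaling gave 0 lower, the values as deposited 2 and the fold rules 3, and the mean of log2 values and the groups compared alone each gave 1 higher. For Atf4 the difference there was -0.43 without scaling (adjusted p = 0.311) and -0.59 in the deposited table (adjusted p = 0.0527). Asking for 3-fold left 6 of 10 in IRI+Hemin and 5 of 10 in IPC+IRI versus Hemin. In IPC+IRI versus IRI+Hemin (2 lower), normexp, no scaling, the mean of log2 values, no filter, the groups compared alone and both fold rules gave 1, and leaving out arrays 1 to 2. The 2 interactions fell to 0 with normexp, no scaling or the deposited table, to 1 with the percentile over probes above background, the mean of log2 values or no filter, and numbered 0 to 2 on leaving out arrays.

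In IRI versus Control the targets of ATF4 and CHOP (16 higher, 4 lower) had 1 lower with normexp, 0 without scaling, 2 with quantile normalization, the brightest probe, no filter or a filter on all arrays, and 1 to 5 on leaving out arrays. The ER folding list (9 and 5) gave 3 and 2 with normexp, 4 and 2 without scaling, 9 lower with the percentile over probes above background, 3 and 9 in the deposited table, and 3 to 7 lower on leaving out arrays. The sensors and eIF2 list (6 and 2) gave 2 and 0 with normexp, 3 and 1 without scaling, 4 lower with the percentile over probes above background, 2 and 4 in the deposited table, 1 lower with the filter on all arrays, and 2 to 4 lower on leaving out arrays. In IPC+IRI versus IRI the targets (15 lower) had 8 lower with normexp, 3 without scaling and 7 in the deposited table, the ER list (7 lower) 1 without scaling and 4 in the deposited table, and the sensors (4 and 3) 0 lower without scaling, 2 higher with quantile normalization and 2 to 4 higher on leaving out arrays. In IRI+Hemin versus IRI the targets (2 and 8) gave 5 lower with normexp, 5 and 3 without scaling, 4 and 4 in the deposited table and 1 higher with the filter on all arrays. The ER list (6 and 11) gave 6 lower with normexp, 14 and 4 without scaling and 11 and 5 in the deposited table. The sensors (4 lower) gave 0 without scaling, 2 in the deposited table, without a filter or with the groups compared alone, and 2 to 4 on leaving out arrays.

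Arrays of the same number did not deviate together (r from -0.38 to 0.21, and 4 of 20 arrays correlated best with their own number). These values cannot show whether the samples were matched by number. With the replicate number as a block, 0 genes were higher in Hemin versus Control (Asns lost its call), 1 was lower in IPC+IRI versus IRI+Hemin (Eif2ak3 lost its call), 1 interaction was called (Trib3 lost its call) and 2 sensors were lower in IRI+Hemin versus IRI. The block changed no other call of the 10 genes. Slide as a random block could not be fitted, because each group lay on 1 slide, and was not run.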
